A study of Mus musculus with 6 samples.

Results

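Collagen genes were examined in sorted keratinocytes of mouse back skin with and without its nerves. The members are the genes whose symbol is Col, a number, a and a number, 44 of the 24982 rows of the count matrix. The 3 mice (890, 892 and 899) each contributed left back skin, where the skin nerves had been dissected away 4 weeks before (denervated, 3 libraries), and right back skin with its nerves kept (normal, 3 libraries). All mice carried the Lgr6-EGFP-Ires-CreERT2 allele together with the reporter R26loxP-stop-loxP-tdTom, so tamoxifen (20 µg on postnatal day 42, in both groups) marks cells in which the Lgr6 promoter is active, and their progeny, with tdTomato. Marked cells were stained for CD49f, the integrin alpha 6 chain of basal keratinocytes, before sorting. The labels describe no sham operation on the right, so the effects of nerve loss, of the operation and of the side of the body cannot be told apart. Libraries held between 9610071 and 26167593 counts, and the deepest and the shallowest were the normal and the denervated side of animal 890.

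A collagen molecule is a bundle of chains wound into a helix, and it forms only where glycine opens each of a series of amino acid triplets. Fibroblasts of the dermis make the fibril-forming collagens that give skin its strength. Basal keratinocytes instead make collagens that fasten them to the basement membrane. Among these, collagen XVII spans the membrane at hemidesmosomes, the rivets between a basal cell and the basement membrane. Type VII forms the anchoring fibrils below that membrane, and type IV chains build its network. Loss of collagen VII or XVII function causes blistering skin disease.

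The repeat can be read from the coding sequence, since glycine codons begin with GG. The 30 triplets that open the longest unbroken repeat (90 bases) are shown for the 2 most abundant collagens here, for a chain of the epidermal basement membrane, and for a fibril chain. Capitals mark the glycine codons, and the sequences are read 5′ to 3′ from the longest coding transcript of each gene in GENCODE M21 (mm10). They start at codon 651 of Col17a1 (chromosome 19), codon 2518 of Col7a1 (chromosome 9), codon 822 of Col4a6 (chromosome X) and codon 97 of Col1a2 (chromosome 6).
Col17a1: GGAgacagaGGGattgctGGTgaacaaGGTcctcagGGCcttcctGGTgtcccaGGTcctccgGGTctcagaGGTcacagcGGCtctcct
Col7a1: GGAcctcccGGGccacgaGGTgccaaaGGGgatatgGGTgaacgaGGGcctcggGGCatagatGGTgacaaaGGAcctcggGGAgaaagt
Col4a6: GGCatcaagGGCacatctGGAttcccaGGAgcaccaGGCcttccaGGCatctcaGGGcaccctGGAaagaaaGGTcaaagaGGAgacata
Col1a2: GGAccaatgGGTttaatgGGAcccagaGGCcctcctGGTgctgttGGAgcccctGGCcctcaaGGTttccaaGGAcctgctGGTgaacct
From those codons the repeat went on for 55 triplets in Col17a1, 75 in Col7a1 and 45 in Col4a6, against 339 in Col1a2.

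The collagens spread over a wide range of levels. Levels of different genes are compared in TPM, transcript abundance scaled to a fixed library total, which corrects for gene length. By the mean over the 6 libraries, 9 genes stood at 10 TPM or more, 7 between 1 and 10 TPM, and 28 below 1 TPM. The 9 were Col17a1, Col7a1, Col16a1, Col23a1, Col18a1, Col4a6, Col4a5, Col12a1 and Col6a1. At the foot, 5 genes had no count in any library (Col10a1, Col13a1, Col22a1, Col24a1 and Col25a1). For those, a limit of 3 counts is between 0.115 and 0.312 CPM (counts scaled to a fixed library total), for counting error only.

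**Figure D1:**
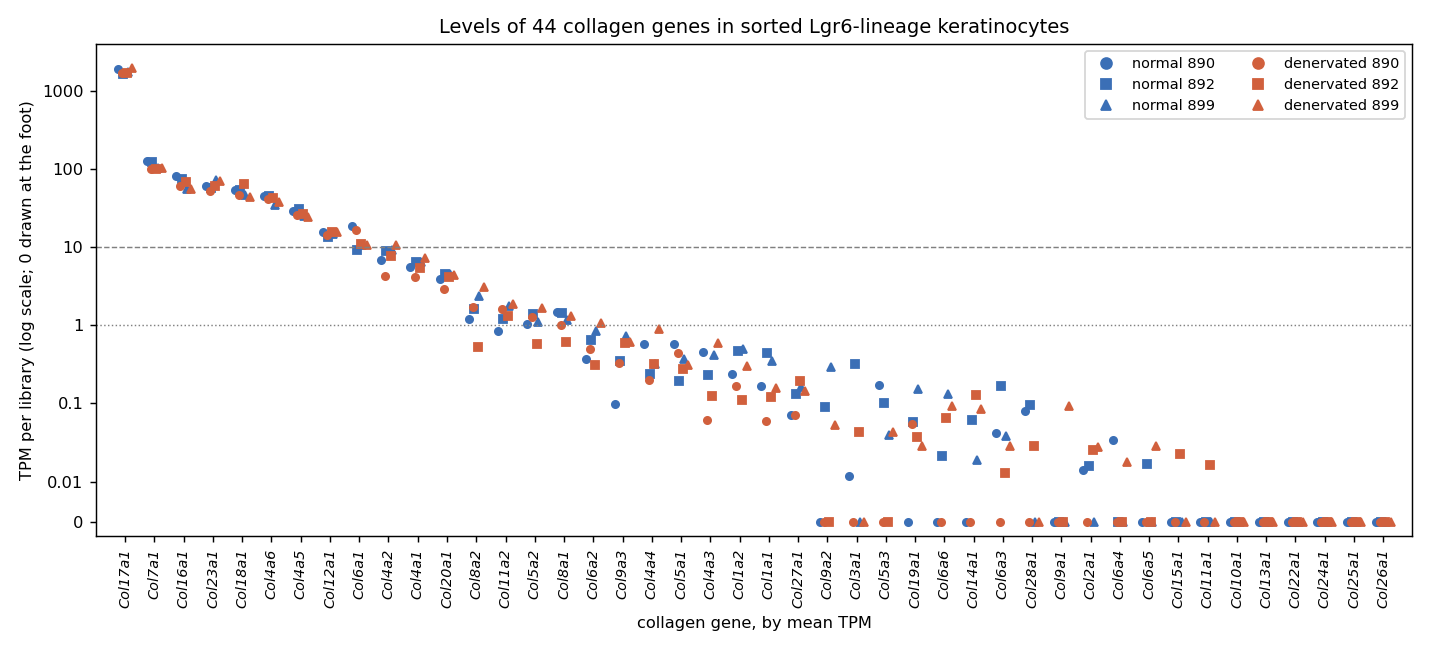
TPM of each collagen gene in each of the 6 libraries on a log axis, genes ordered by their mean, with colour for the side, shape for the animal, and lines at 10 TPM (dashed) and 1 TPM (dotted). Col17a1 stands alone at the top, 8 further genes have means above the dashed line, and the 6 points of each of these lie close together.

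Col17a1, the transmembrane collagen of the hemidesmosome (chromosome 19, 47646344 to 47692094, minus strand, mm10), was by far the most abundant. Its level was 1919, 1668 and 1764 TPM in the normal libraries of animals 890, 892 and 899, and 1699.7, 1695 and 1965 TPM in the denervated ones. The ranges of the sides overlapped. It made up between 79.2% and 83.1% of the summed TPM of all 44 collagens in each library, and ranked between 94 and 106 among all genes.

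Col7a1, whose product builds the anchoring fibrils (chromosome 9, 108953586 to 108984875, plus strand), came next. It measured 128, 123 and 104 TPM on the normal and 99.1, 102 and 104 TPM on the denervated side. Its level lay above that of Col16a1 in 6 of 6 libraries. Col16a1, a fibril-associated collagen (a FACIT, which binds to the surface of fibrils), had a mean of 66.4 TPM, between 55.9 and 81.3 TPM. Col23a1, a transmembrane collagen, had a mean of 62.4 TPM (52.3 to 71.9), and exceeded Col16a1 in 2 of 6 libraries, both of them from animal 899. Col18a1, a basement membrane proteoglycan whose end fragment is endostatin, had a mean of 52.0 TPM (44.6 to 65.5). It was below Col23a1 in 5 of 6 libraries, so the order of these 3 did not hold throughout.

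The basement membrane chains Col4a6 and Col4a5 followed, with means of 41.4 TPM (35.0 to 45.5) and 27.1 TPM (24.3 to 31.3). Col4a6 exceeded Col4a5 in 6 of 6 libraries. Col12a1, another FACIT, had a mean of 15.0 TPM (13.4 to 15.9), and the type VI chain gene Col6a1 one of 12.9 TPM (9.35 to 19.0). These 2 kept that order in 4 of 6 libraries.

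A textbook list of 9 keratinocyte collagens and one of 12 dermal fibroblast collagens were set against these levels. Of the keratinocyte list, 6 were at 10 TPM or more, Col4a1 and Col4a2 lay between 1 and 10 TPM, and Col13a1 had no count. Of the fibroblast list, 8 were below 1 TPM, among them Col1a1, Col1a2 and Col3a1, the main fibril chains of dermis. The list was not low throughout, since Col16a1, Col12a1 and Col6a1 stood at 10 TPM or more, and Col5a2 at 1.18 TPM. The keratinocyte list summed to between 1973 and 2264 TPM per library, and to between 274 and 331 TPM without Col17a1. The fibroblast list summed to between 84.5 and 119 TPM, and to between 26.5 and 37.5 TPM without Col16a1.

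Col1a1, Col1a2 and Col3a1 together had 0.416, 1.23 and 0.856 TPM in the normal libraries of animals 890, 892 and 899, and 0.225, 0.277 and 0.465 TPM in the denervated ones. The normal side was higher in each animal. Single libraries weighed on the rarest of these chains. The normal library of animal 892 held 23 of the 26 counts of Col3a1 and 20 of the 32 counts of Col6a3. Other fibroblast markers were scarce as well: 11 of 14 stayed below 1 CPM in every library, and Lum and Twist2 had no count. Dcn reached 1.07 CPM. The 2 exceptions were Postn (188 to 508 CPM) and Thy1 (89.2 to 157 CPM), which carried most of the list's sum of 290.1 to 665 CPM. In bulk RNA, fewer cells of a type and less RNA per cell cannot be told apart.

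The sorted cells expressed the basal markers Krt5 (17670 to 21780 CPM) and Krt14 (11860 to 15460 CPM) throughout. Endothelial markers summed to between 3.34 and 5.72 CPM and were lower after denervation in 3 of 3 animals, with Cdh5 and Emcn at 0. Sums of the other marker lists were between 132 and 179 CPM for pericytes and smooth muscle (lower after denervation in 3 of 3 animals), 216 and 314 CPM for Schwann cells (higher in 3 of 3), 14.0 and 26.3 CPM for melanocytes, 4.96 and 9.16 CPM for T cells, and 1.31 and 3.08 CPM for skeletal muscle (lower in 3 of 3). Myeloid and Langerhans cell markers summed to between 269 and 349 CPM (higher in 3 of 3), of which Epcam, which keratinocytes also express, gave 188 to 241 CPM. In that list Cd74 (41.3 to 74.0 CPM) was higher after denervation in each animal. Cx3cr1, below 1 CPM in every library, was lower, with 25, 17 and 8 counts on the normal and 1, 3 and 1 on the denervated side. Most of the Schwann cell sum was Mbp (92.8 to 131 CPM) and Pmp22 (90.7 to 175 CPM). Of the 10 Schwann cell markers, 6 stayed below 1 CPM in every library, with Cdh19 at 0. What part cells of these lists have in the levels of low collagens was not tested.

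The coding repeat set the fibril-forming class apart, rather than abundant from rare collagens. A coding transcript was found for all 44 genes. The longest unbroken run of glycine-led triplets was between 30 and 87 in the 9 genes at 10 TPM or more, with a median of 45. In the 28 genes below 1 TPM it was between 23 and 344, with a median of 73.5, and 9 of them had a run of 200 or more. All 11 fibril-forming collagens had runs of 216 to 344 triplets, and no other collagen exceeded 113. None of these 11 reached 10 TPM, and the highest were Col11a2 (1.43 TPM) and Col5a2. Short runs did not mark abundance as such, since Col26a1, with 23 triplets, and Col13a1, with 44, were at 0 TPM. This is a description of 44 related genes, with no test.

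**Figure D2:**
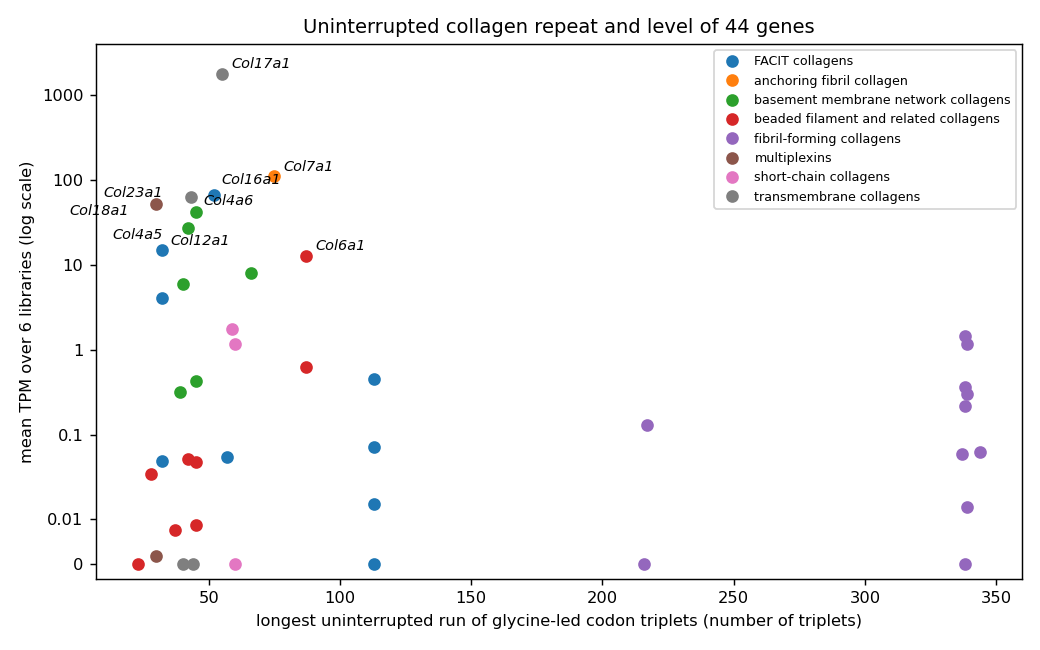
Longest unbroken run of glycine-led codon triplets (x axis, number of triplets) against the mean TPM over 6 libraries (log axis, 0 at the foot) for 44 collagen genes, coloured by class. The 9 named genes at 10 TPM or more have runs of 30 to 87 triplets, and the 11 fibril-forming genes at the right lie below 2 TPM.

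Chains that share a molecule were not equally abundant. Type VI collagen is assembled from the products of Col6a1, Col6a2 and Col6a3. Col6a1 measured 19.0, 9.35 and 10.7 TPM on the normal and 16.4, 11.1 and 10.7 TPM on the denervated side. Col6a2 stayed between 0.315 and 1.06 TPM and Col6a3 between 0 and 0.167 TPM. Col6a1 was thus 10.1 to 50.9 times higher than Col6a2 within a library. In type V, Col5a2 exceeded Col5a1 in each library, by 1.78 to 7.17 times. The type VIII chains, Col8a1 and Col8a2, had means of 1.17 and 1.77 TPM, and their order changed between libraries.

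The 6 type IV genes lie in 3 head-to-head pairs, each sharing a stretch of DNA from which the genes run in opposite directions. On chromosome X, the annotated starts of Col4a6 (141165403 to 141474076, minus strand) and Col4a5 (141475385 to 141689234, plus strand) are 1309 bases apart. On chromosome 1, those of Col4a4 and Col4a3 are 72 bases apart. On chromosome 8, Col4a2 (11312805 to 11449287, plus strand) starts 21 bases inside Col4a1 (11198423 to 11312826, minus strand). The promoter windows of the 2 pairs that were expressed above 1 TPM are shown because the levels of these neighbours are set side by side. They are 300 bases around the RefSeq start (GRCm38.p6), on the strand of the gene, at chr8:11312777-11313076 (Col4a1), chr8:11312555-11312854 (Col4a2), chrX:141475169-141475468 (Col4a5) and chrX:141474027-141474326 (Col4a6). Capitals mark matches on either strand to a CCAAT box, written CCAAT, to a GC box, written GGGCGG, to a TATA box, written TATAAA, or to an AP-1 site, written TGANTCA, where N is any base. Within a window, none of the matches shown overlap.
Col4a1: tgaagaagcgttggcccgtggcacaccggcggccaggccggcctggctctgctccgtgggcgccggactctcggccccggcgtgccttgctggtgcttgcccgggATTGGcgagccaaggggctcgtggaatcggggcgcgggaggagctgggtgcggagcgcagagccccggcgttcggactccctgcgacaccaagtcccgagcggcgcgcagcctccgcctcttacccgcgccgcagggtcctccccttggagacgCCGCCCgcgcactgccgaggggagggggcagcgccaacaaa
Col4a2: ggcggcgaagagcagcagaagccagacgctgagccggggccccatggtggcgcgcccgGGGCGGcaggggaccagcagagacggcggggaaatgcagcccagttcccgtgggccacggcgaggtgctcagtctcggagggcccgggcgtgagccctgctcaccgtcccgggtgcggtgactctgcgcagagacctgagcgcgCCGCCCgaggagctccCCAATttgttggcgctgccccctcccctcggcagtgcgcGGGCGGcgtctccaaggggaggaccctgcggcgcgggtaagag
Col4a5: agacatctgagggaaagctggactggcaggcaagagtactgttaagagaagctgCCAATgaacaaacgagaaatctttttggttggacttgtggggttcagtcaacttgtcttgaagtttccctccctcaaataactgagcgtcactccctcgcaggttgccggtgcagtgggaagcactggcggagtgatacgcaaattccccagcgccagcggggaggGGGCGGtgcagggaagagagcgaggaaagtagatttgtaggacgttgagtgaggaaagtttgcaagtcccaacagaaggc
Col4a6: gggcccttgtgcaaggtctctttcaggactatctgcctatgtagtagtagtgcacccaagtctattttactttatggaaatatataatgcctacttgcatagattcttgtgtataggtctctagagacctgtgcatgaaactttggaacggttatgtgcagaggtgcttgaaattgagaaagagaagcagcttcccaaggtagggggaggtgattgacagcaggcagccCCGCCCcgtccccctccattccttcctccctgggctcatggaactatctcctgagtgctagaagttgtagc
The windows of Col4a1 and Col4a2 share 78 bases, whereas those of Col4a5 and Col4a6 do not overlap. The GC box marked in Col4a1 lies in the shared bases and is the same site as the last GC box marked in Col4a2. Each window held a GC box, 3 of them in that of Col4a2, and a CCAAT box was found in all but that of Col4a6. None held a TATA box or an AP-1 site. Of 32817 windows of all genes, 35.6% held a GC box, 37.4% a CCAAT box, 13.6% a TATA box and 7.8% an AP-1 site. Of the 38 windows found for 35 of the 44 collagen genes, 23 held a GC box, 13 a CCAAT box, 5 a TATA box and 1 an AP-1 site. These are matches of letters, not known binding sites.

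Col4a2 exceeded Col4a1 in 6 of 6 libraries, by 1.03 to 1.44 times in TPM. Both were lowest in the denervated library of animal 890 (4.34 and 4.22 TPM) and highest in the denervated library of animal 899 (10.5 and 7.34 TPM). Col4a6 exceeded Col4a5 by 1.54, 1.46 and 1.39 times on the normal side of animals 890, 892 and 899, and by 1.62, 1.59 and 1.58 times on the denervated side. The ratio was higher on the denervated side in each animal, and the groups did not overlap. The same held for Col4a4 over Col4a3, both near the floor. That ratio was 1.24, 1.03 and 0.78 on the normal side and 3.25, 2.52 and 1.48 on the denervated side. In the other chain pairs looked at, the groups overlapped. These ratios were looked at after the single genes and were not tested, and no share over other gene pairs was computed. Col4a3 and Col4a4, known from the kidney filter, stayed below 1 TPM in every library (0.0616 to 0.603 and 0.200 to 0.890 TPM).

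**Figure D3:**
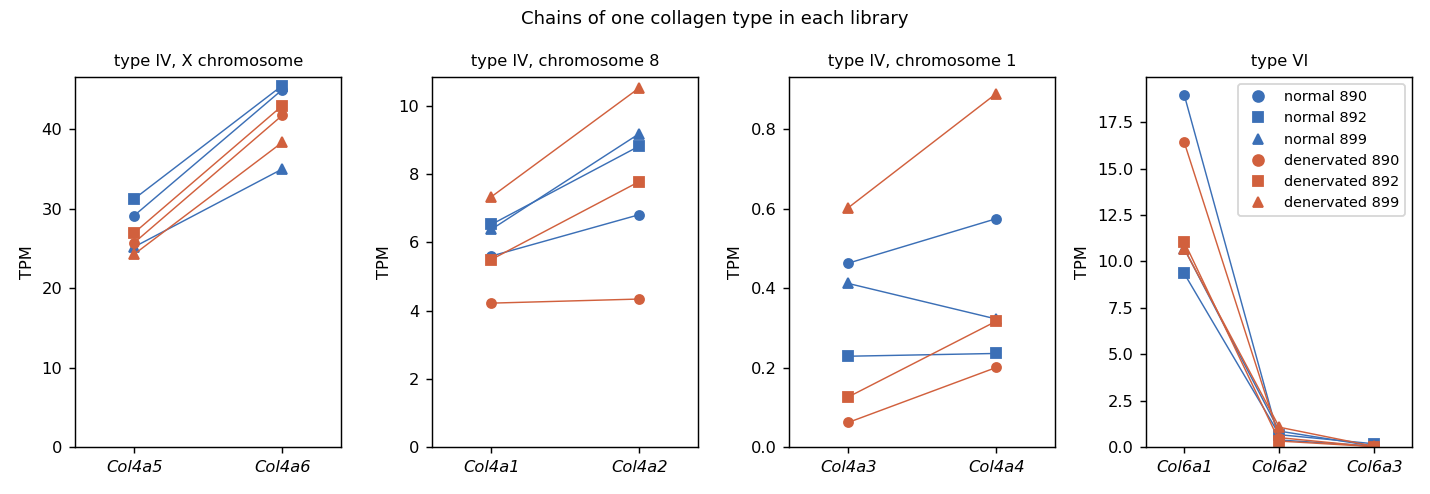
TPM of chains of 1 collagen type in each library, with lines joining the chains of a library, colour for the side and shape for the animal. Col4a6 lies above Col4a5 and Col4a2 above Col4a1 in 6 of 6 libraries, while Col6a2 and Col6a3 lie near 0 beside Col6a1.

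Setting the denervated against the normal side asks whether collagen expression of these cells differs where the nerves are gone. Within the animals, no collagen gene was called. A filter on low counts kept 23 of the 44 genes. edgeR's quasi-likelihood test with the animal as a block called 0 of these 23 at an adjusted p below 0.05, where it called 3.46% of all 12310 genes tested. At an unadjusted p below 0.05 there was 1, Col7a1, where the share over all genes was 18.2%. None of the 23 had sides without overlap in CPM (here scaled with TMM factors), against 19.0% of all genes. The median log2 fold change was −0.10 over the 23 collagens and −0.02 over all genes tested. It was below 0 for 15 of the 23, against 54.7% of all genes. DESeq2 with the animal in its design called 0 of the 10 collagens to which it gave an adjusted p, against 7.91% of all genes that had one.

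**Figure D4:**
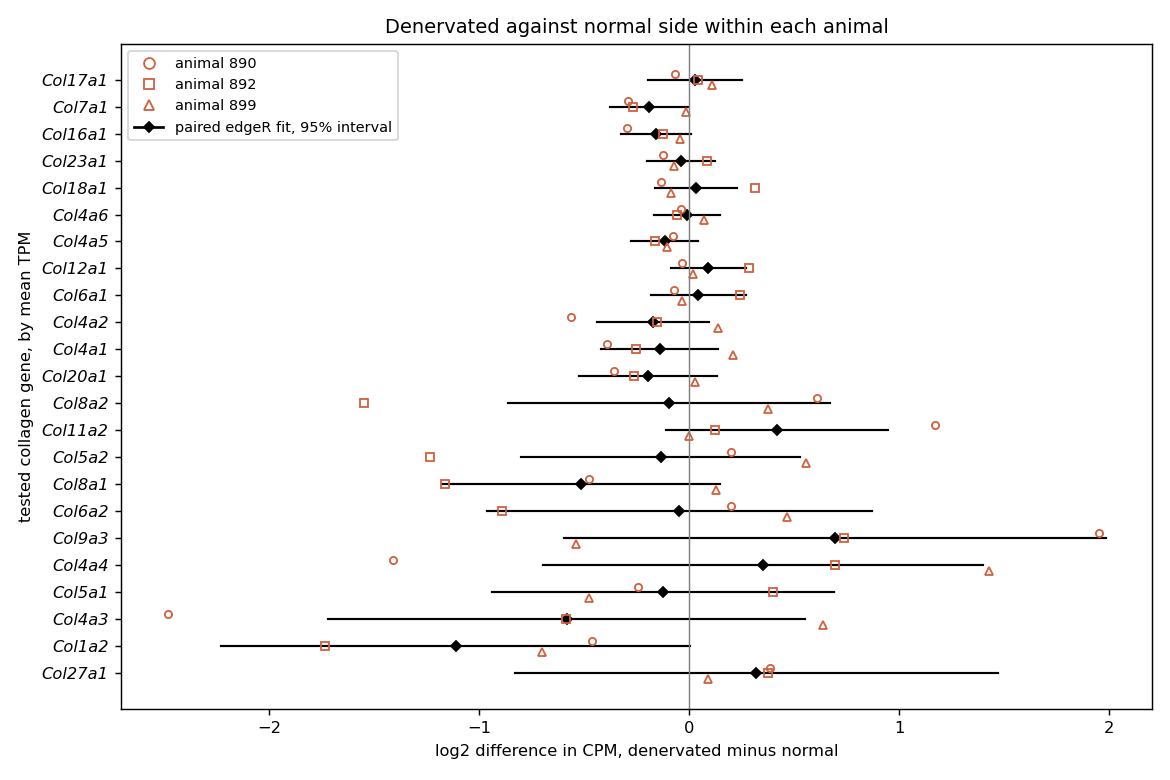
Log2 difference in CPM, denervated minus normal, of the 23 tested collagen genes ordered by mean TPM. Open symbols are the 3 animals, diamonds the paired fit and bars its 95% intervals. Intervals are narrow for the abundant genes at the top and widen downwards, and that of Col7a1 alone ends below 0.

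Intervals around the abundant collagens were narrow. Col17a1 stood at 6575, 6047 and 6202 CPM on the normal side and at 6277, 6216 and 6692 CPM on the denervated side. Its fold change was 1.02 (95% interval 0.874 to 1.19, adjusted p = 0.917, edgeR), with a log2 fold change of 0.03 with TMM factors and −0.034 with library totals. Over the 9 genes at 10 TPM or more, the lowest bound was 0.770 (Col7a1) and the highest 1.21 (Col6a1). The interval of Col4a6, for one, was narrower, from 0.890 to 1.11.

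Col7a1 showed the smallest p. It went from 758, 775 and 618 CPM (717 ± 86.1, SD, n = 3) to 618, 644 and 612 CPM (625 ± 16.9). It was lower in 3 of 3 animals, by 0.29, 0.27 and 0.01 on the log2 scale, and the sides overlapped, since the normal library of animal 899 was as low as the denervated ones. The fold change was 0.875 (95% interval 0.770 to 0.995), with an unadjusted p = 0.0427 and an adjusted p = 0.254 in edgeR. Without animal 899, whose sides hardly differed, Col7a1 was called (log2 fold change −0.28, adjusted p = 0.0381, edgeR), in a fit that called 7.74% of all genes. The authors' deposited table gives a log2 fold change of −0.19 and an adjusted p of 0.147.

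Col16a1 and Col4a5 were lower in 3 of 3 animals too, and so was Col1a2. These 4 of the 23 compare with 21.4% of all genes. Col16a1 stood at 274, 271 and 194 CPM on the normal side, and at 223, 248 and 188 CPM without nerves. Its fitted log2 difference was −0.16 ± 0.08 SE (adjusted p = 0.307, edgeR). Col4a5 had a log2 fold change of −0.12 ± 0.07 SE (adjusted p = 0.434, edgeR), while its neighbour Col4a6 had −0.01 ± 0.07 SE (adjusted p = 0.959, edgeR). Higher in 3 of 3 animals were Col11a2 and Col27a1, against 19.3% of all genes. Col11a2 stood at 3.23, 5.33 and 7.65 CPM and at 7.43, 5.82 and 7.66 CPM, so that animal 890 carried the difference (log2 1.17, against 0.12 and 0.00).

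Col1a2 was the type I collagen chain that passed the filter. It had 21, 32 and 22 counts on the normal side and 5, 5 and 12 on the denervated side, and was lower there in CPM in each animal. The log2 fold change was −1.11 ± 0.52 SE (95% interval −2.23 to 0.00, adjusted p = 0.275, edgeR). Its partner Col1a1, which did not pass the filter, had 15, 37 and 17 counts on the normal side and 2, 8 and 7 on the denervated side. Scaled to library size, these are 0.564, 1.73 and 1.22 CPM against 0.215, 0.582 and 0.536 CPM, lower in each animal. The levels of both lie near the floor. The sums of endothelial, pericyte and skeletal muscle markers were lower on that side as well, while those of Schwann and of myeloid cells were higher. Among the endothelial markers, Flt1 had 68, 42 and 46 counts on the normal side and 15, 20 and 23 on the denervated side. Pecam1 went the other way. It had 9, 20 and 15 counts against 8, 17 and 17, which is higher on the denervated side in each animal when scaled to library size. Of 8 skeletal muscle markers, 7 stayed below 1 CPM in every library. Most of the pericyte sum was Notch3 (80.1 to 132 CPM) and Cspg4 (at least 24.3 CPM in each library), with Kcnj8 and Abcc9 at 0. In animal 892 that sum was 173.9 CPM on the normal and 172.3 CPM on the denervated side. The sum of fibroblast markers other than collagens, mostly Postn and Thy1, was lower there in 1 of 3 animals (589, 549 and 290.1 CPM against 665, 501 and 317 CPM). The part of other cells in this difference was not tested.

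Other low members could not be judged closely. The 14 tested genes below 10 TPM had a median standard error of 0.37 on the log2 scale, against 0.08 for the 9 genes above. Col4a3 ranged from −2.48 in animal 890 to 0.64 in animal 899, and Col4a4 from −1.41 to 1.43 in the same animals. Col8a1 had a log2 fold change of −0.52 ± 0.31 SE, Col9a3 one of 0.69 ± 0.60 SE, and neither was called (adjusted p = 0.406 and 0.578, edgeR). Col20a1 stood at −0.20 ± 0.15 SE, and Col4a1 and Col4a2 at −0.14 ± 0.13 and −0.17 ± 0.12 SE. The remaining 21 of the 44 genes had between 0 and 86 counts over all libraries and were not tested.

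Genes that make, hold and cut collagen were followed by lists. None of 13 tested hydroxylases and glycosyltransferases, which modify the nascent chains, was called. The smallest p there belonged to the galactosyltransferase gene Colgalt1 (log2 fold change −0.16 ± 0.08 SE) and to P3h4 (−0.19 ± 0.13 SE). None of 15 genes of folding and secretion passed, with the COPII coat genes Sec24d (0.28 ± 0.09 SE, adjusted p = 0.113, edgeR) and Sar1b (0.20 ± 0.08 SE) nearest. None of the 7 hemidesmosome partners followed here passed, with the linker gene Dst (0.25 ± 0.10 SE) and the integrin gene Itga6 (0.19 ± 0.09 SE) nearest. DESeq2 with the animal called 1 of these partners. None of 13 further basement membrane genes passed, with Lamb1 (0.21 ± 0.11 SE) and Fras1 (0.48 ± 0.27 SE) nearest.

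Over all 7 lists, 5 of 74 tested genes rose and none fell, where 2.88% of all genes were called higher and 0.577% lower. Of 7 tested genes of procollagen processing and crosslinking, Furin rose. Furin, the proprotein convertase, went from 139, 147 and 148 to 180.2, 193 and 168 CPM (log2 fold change 0.32 ± 0.08 SE, adjusted p = 0.0386, edgeR). The sides did not overlap. Of 7 receptors, Itga2, a chain of a collagen-binding integrin, rose from 119, 138 and 145 to 202, 164 and 181 CPM (0.44 ± 0.09 SE, adjusted p = 0.0248, edgeR). Again the sides did not overlap.

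Of 12 tested collagen-cleaving enzymes, 3 rose: the collagenase gene Mmp13 (1.52 ± 0.29 SE) and the stromelysin genes Mmp10 (1.52 ± 0.30 SE) and Mmp3 (0.68 ± 0.11 SE). These 3 genes lie close together on chromosome 9, between 7272514 and 7510240 (mm10). The share over all genes given above takes no account of such nearness. Mmp13 went from 8.49, 8.46 and 1.64 CPM to 42.3, 11.2 and 6.28 CPM, with the highest value in the denervated library of animal 890. Mmp10 went from 1.99, 3.51 and 2.36 CPM to 11.2, 7.27 and 4.52 CPM, and Mmp3 from 44.6, 49.7 and 20.1 CPM to 89.9, 67.6 and 29.2 CPM. Each was higher in 3 of 3 animals, and only for Mmp10 did the sides not overlap. Adjusted p-values were 0.0145, 0.0179 and 0.00884 in that order (edgeR). Without animal 890 the fitted log2 differences fell to 0.95 (Mmp13) and 1.00 (Mmp10). Of the 5 risen genes, Furin and Itga2 lost the call without animal 890 (adjusted p = 0.0625 and 0.0760, edgeR), as did Furin without animal 892 (0.231). With library totals Furin and Itga2 lost it (0.0799 and 0.0528), and with the estimated counts Mmp10 did (0.0826). DESeq2 called Furin, Itga2 and Mmp3 and gave no adjusted p for Mmp10 and Mmp13. Limma on TPM called none of the 5 genes. The marker sums of Schwann and of myeloid cells were higher on the denervated side too, while those of endothelial, pericyte and skeletal muscle cells were lower. The part of these cells was not tested. None of the 5 genes was called without the block (adjusted p from 0.166 to 0.513, edgeR). Whether these genes and the collagens differ in their response was not tested.

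**Figure D5:**
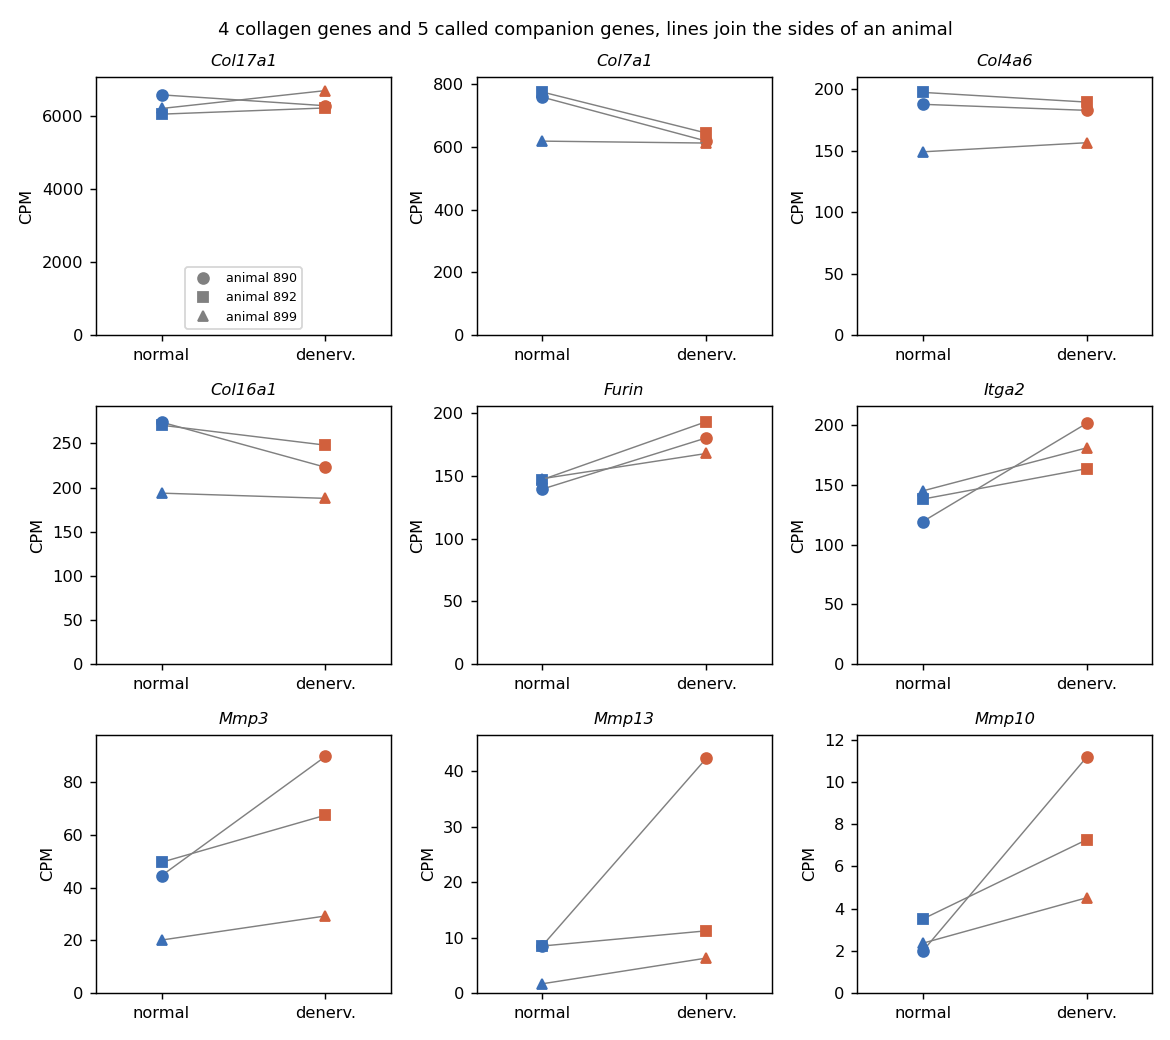
CPM of 4 collagen genes and of the 5 called companion genes in each library, with lines joining the 2 sides of an animal. Furin, Itga2, Mmp3, Mmp13 and Mmp10 are higher without nerves in 3 of 3 animals, while the lines of Col7a1 and Col16a1 slope down and those of Col17a1 and Col4a6 cross in direction between animals.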

How the data were processed

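Poly(A) RNA of 6 libraries was measured. Named in the submitters' processing notes are the programs STAR 2.6.1a and Salmon 0.11.2 and the build mm10, with no roles. The sources used here do not give the annotation or the strandedness of the counting. A matrix of whole-number counts was deposited, 26 of its 24982 rows under names that a spreadsheet turned into dates. Estimated counts and TPM come from other deposited tables, per the file headers. The authors' deposited comparison gives log2 fold changes, a score (test statistic), p-values and mean normalised signal, with its direction read as denervated against normal.

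Groups and animal numbers come from the titles. Both sides come from 1 mouse, per the labels' protocols, so the number pairs them. Deviations from group means correlated at 0.356, 0.362 and 0.443 for same-animal libraries, across genes. Libraries of a group differed beyond sampling noise (chi-square over its degrees of freedom at least 12.8).

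The main test was edgeR 4.0.16 (R 4.3.3), quasi-likelihood, with the animal as block, TMM factors, filterByExpr (minimum count 10, total 15) and Benjamini-Hochberg adjustment over 12310 genes, called below 0.05. Standard errors were taken from the log2 fold change and the F statistic (its root as divisor), and 95% intervals use the fit's degrees of freedom. Single-animal differences are log2 CPM with a prior count of 2. The script was tested on simulated data. Alternatives were no block, other scalings, filters and thresholds, the estimated counts rounded to whole numbers, DESeq2 1.42.0, limma 3.58.1 on log2(TPM + 1) or log2(TPM + 0.1) for genes with a mean of at least 1 TPM, which understates changes of low genes, and each animal left out.

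Members, lists and limits (1 and 10 TPM) were chosen with earlier results of these data known. Named genes were all collagens that passed the filter or 1 TPM and, per list, up to 4 called genes or the 2 with the smallest p. Coordinates are from GENCODE M21, promoters from RefSeq. P-values rest on 3 animals. A gene of the companion lists is not reported here.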

Additional observations from a re-analysis of the deposited data

How the results depend on the processing

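The number of collagen genes called was 0 under each alternative but 1. Leaving out 1 animal gave 0 to 1 called collagens, the 1 being Col7a1 without animal 899. An adjusted p below 0.1 gave 0. The count of all genes called was 426, and moved to 0 with no replicate block, 987 with no filter on low counts, 820 at an adjusted p below 0.1, and 1 with limma on either TPM scale, and it was 248 to 976 with an animal left out. Without the block, 1537 genes had an unadjusted p below 0.05, none of them a collagen. The median log2 fold change of the tested collagens ranged from −0.21 (without animal 899) to −0.0091 (without animal 890). The 5 companion genes became 0 with no replicate block, 3 with library totals and 0 with limma, and 3 to 8 with an animal left out. The keratinocyte and fibroblast lists summed to means of 2092 and 97.1 TPM, and to 307 and 30.7 TPM without their most abundant member. Col17a1, Col18a1 and Col6a1 turned to −0.034, −0.029 and −0.019 with library totals, Col18a1 to −0.011 and −0.012 with limma on log2(TPM + 1) and log2(TPM + 0.1), and Col4a6 to 0.015 with the estimated counts. Col6a2 and Col8a2 turned to 0.10 and 0.069 with no replicate block. With 1 animal left out, log2 fold changes ranged from −0.013 to 0.075 for Col17a1, −0.095 to 0.12 for Col18a1, −0.083 to 0.0052 for Col23a1, −1.55 to 0.12 for Col4a3, −0.31 to 1.14 for Col4a4, −0.048 to 0.032 for Col4a6, −0.36 to 0.059 for Col5a1, −0.52 to 0.40 for Col5a2, −0.040 to 0.11 for Col6a1, −0.40 to 0.39 for Col6a2 and −0.43 to 0.51 for Col8a2. None of these was called, and the cause was not tested. The other 12 tested collagens kept their sign. The block changed no collagen call.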

Other observations

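Collagen levels also differed between the 3 animals, whatever the side. In the paired fit the animal terms were called for 3 of the 23 tested collagens (3.78% of all genes, edgeR, adjusted over all genes). This test was added after the data were seen. Col6a1 was highest in both libraries of animal 890 (44.7 and 42.5 CPM, against 23.2 to 27.5 CPM in the other 4, adjusted p = 0.00238). Col4a2 was lowest in both libraries of animal 890 (26.6 and 17.98 CPM, against 33.2 to 40.9 CPM, adjusted p = 0.0186). Col16a1 was lowest in both libraries of animal 899 (194 and 188 CPM, against 223 to 274 CPM, adjusted p = 0.0312). What else differs between these animals was not tested.

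Col5a2, Col6a2 and Col8a2 shared a profile over the libraries, noticed after the data were seen. Each was highest in the denervated library of animal 899 and lowest in the denervated library of animal 892. In those 2 libraries, Col5a2 stood at 6.89 and 2.47 CPM, Col6a2 at 2.91 and 0.800 CPM, and Col8a2 at 7.35 and 1.31 CPM. Of all tested genes 2.30% had that highest and lowest library.

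Col26a1 had 4 counts in the denervated library of animal 890 in the whole-number matrix and was listed at 0 TPM in each library.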
